A study of Sus scrofa with 15 samples.

Results

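Expression of 6 genes was followed in 3 populations of porcine natural killer (NK) cells. They were the sialomucins and selectin ligands *SPN*, *SELPLG* and *CD44*, and *MSN*, *EZR* and *RDX*, which code for the ezrin-radixin-moesin (ERM) proteins. These genes were chosen by symbol, as rolling and homing glycoproteins together with the proteins that tie them to actin, out of the 29886 genes in the count table. All 6 passed the filter on low counts that left 10939 genes for testing. The 15 libraries came from 5 pigs of 6 months of age, each of which gave blood CD8α high NK cells, liver CD8α high NK cells (conventional liver NK cells in the sample labels) and liver CD8α dim NK cells (liver-resident NK cells, lrNK cells). Per the study's methods, the NK cells were isolated as CD3- CD172a- lymphocytes, and the liver cells were washed out of the vessels through the portal vein. No animal was treated and no allele was altered. RNA was counted by 3′ tag sequencing of bulk populations, so fewer cells of a type and less RNA per cell cannot be told apart.

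Leukosialin (CD43, the product of *SPN*), P-selectin glycoprotein ligand-1 (PSGL-1, the product of *SELPLG*) and CD44 are long, heavily glycosylated surface proteins of leukocytes. Decorated with the right sugars, PSGL-1 binds the selectins with which vessel walls and platelets slow passing leukocytes to a roll, CD43 and CD44 can serve as further selectin ligands, and CD44 is also the main receptor for hyaluronan, a matrix polymer that is abundant in liver sinusoids. Moesin, ezrin and radixin bind the cytoplasmic tails of such proteins with their FERM domain and actin filaments with their other end, and so decide where on a polarised or migrating lymphocyte these proteins gather.

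In the pig genome assembly Sscrofa11.1, *SPN* lies on chromosome 3 (17978731 to 17982222), *SELPLG* on chromosome 14 (42158694 to 42178044), *CD44* on chromosome 2 (25788699 to 25884209), *MSN* on chromosome X (51844197 to 51967674), *EZR* on chromosome 1 (8403362 to 8452750) and *RDX* on chromosome 9 (38243608 to 38299561). No annotated gene overlapped any of them. *SPN* had 1 annotated transcript and *CD44* 12, and since the counts are per gene, *CD44* splice forms are not separated here.

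The libraries held 2003499 to 5680221 counts. Levels are given as CPM, the count relative to library size, with library sizes scaled by the trimmed mean of M-values. The lrNK library of pig 3 stood apart from the rest: its median absolute log2 deviation from the mean of its population was 0.614, against 0.225 to 0.405 in the other 14 libraries, and several values are also given without it. All 13 NK cell markers examined were detected in every population, and *CD8A*, the gene of the sorting antigen, averaged 465.6 CPM in blood, 490.3 CPM in liver CD8α high and 43.4 CPM in lrNK cells. Markers of B cells moved with the lrNK cells. Their summed level (6 of 7 listed genes in the table, *CD79A* at 0 in all libraries) was 14.7 to 124 CPM in blood, 0 to 55.9 CPM in liver CD8α high and 293 to 836 CPM in lrNK libraries. The 7 T cell markers summed to 637 to 1203 CPM, 714 to 1076 CPM and 110 to 593 CPM, nearly all of it *CD3G*, with *CD4*, *CD5* and *CD28* at 0 throughout. Monocyte and macrophage markers summed to at most 25.6 CPM in any library (*CSF1R*, *CD163* and *MARCO* at 0), hepatocyte markers to at most 9.74 CPM, endothelial markers to at most 18.8 CPM and cholangiocyte markers to at most 0.960 CPM. *LYZ*, the 1 monocyte marker tested, averaged 2.30 CPM in blood, 0.365 CPM in liver CD8α high and 8.56 CPM in lrNK cells. It was called higher in lrNK than in liver CD8α high cells (log2 difference 4.57, adjusted p = 0.0272, edgeR). Against blood it was not (1.88, adjusted p = 0.305, edgeR). Platelet and erythroid markers summed to 76.4 to 395 CPM in blood and 89.9 to 178 CPM in the liver libraries. Most of this was *GP9*, at means of 90.5 CPM in blood, 96.4 CPM in liver CD8α high and 118 CPM in lrNK cells. *HBB* ran from 0 to 302 CPM in blood libraries. The part of these cells in the values below was not tested.

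Of the 6 genes, 4 were lower in lrNK cells than in blood NK cells and none was higher, where 9.6% of all genes tested were called lower and 8.62% higher (18.2% in all). *SELPLG*, *SPN*, *MSN* and *CD44* fell, in order of size, and *EZR* and *RDX* did not pass the test. Against liver CD8α high NK cells the same 4 genes fell, at a background of 7.68% lower, 6.96% higher and 14.6% in either direction. For these 4 genes every lrNK library lay below every library of the population compared, which held for 7.33% of all genes against blood and for 6.67% against liver CD8α high cells. The median log2 difference of the 6 genes was -0.94 against blood and -0.90 against liver CD8α high cells, and that of all genes tested was 0.0060 and 0.016. Tests below are edgeR quasi-likelihood tests with Benjamini-Hochberg adjustment over all 10939 genes, with 5 pigs in each population, and both contrasts share the same lrNK libraries.

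**Figure D1:**
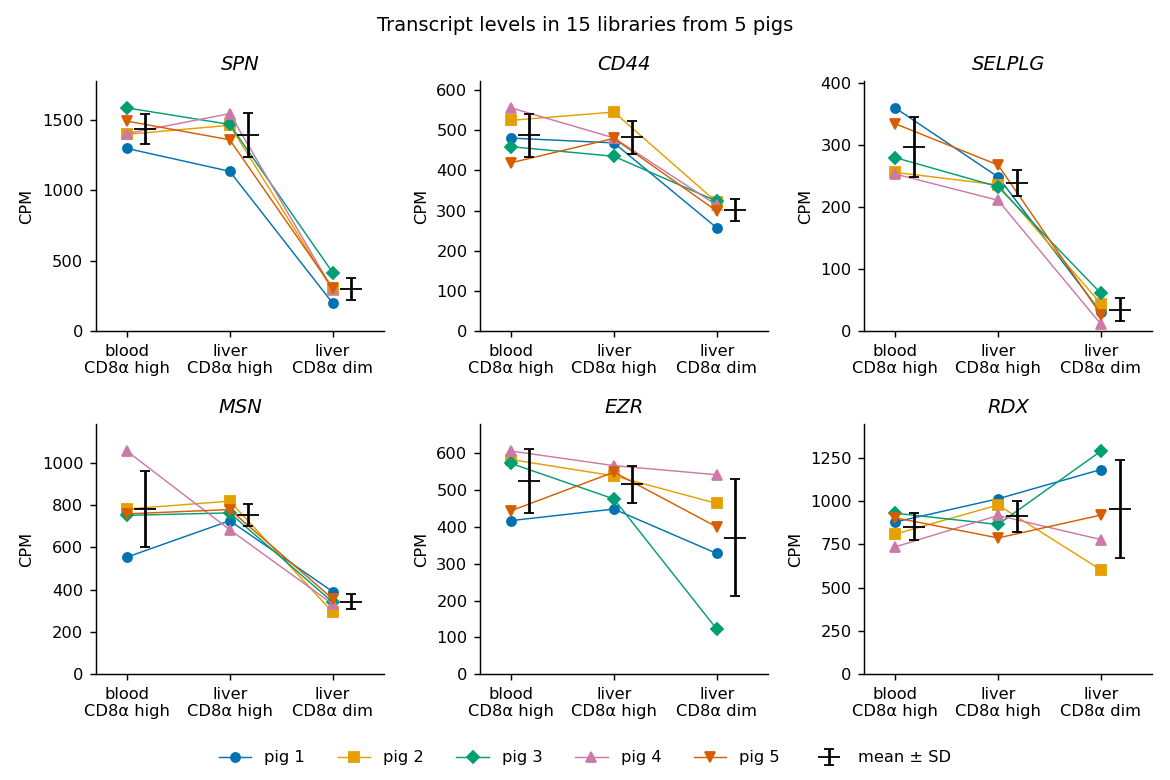
Level of each of the 6 genes in CPM (vertical axes, each starting at 0) in the 3 NK cell populations. Each point is the library of 1 pig, lines join the libraries of a pig, and the black bar is the mean with its SD over 5 pigs. For *SPN*, *SELPLG*, *CD44* and *MSN* every lrNK library lies below every library of the other populations, whereas *EZR* and *RDX* overlap and spread most in lrNK cells.

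*SPN* had the highest level of the 6 genes in both CD8α high populations and lost most of it in lrNK cells. In pigs 1 to 5 the blood libraries read 1297, 1397, 1585, 1402 and 1491 CPM. The liver CD8α high libraries of these pigs read 1135, 1461, 1467, 1544 and 1358 CPM, and the lrNK libraries 199, 293, 416, 297 and 306 CPM. The highest lrNK library thus lay far under the lowest CD8α high library, and the ranges of both CD8α high populations overlapped, with the liver library of pig 1 below every blood library. Means were 1434 ± 109 CPM in blood, 1393 ± 159 CPM in liver CD8α high and 302 ± 77.1 CPM in lrNK cells (SD, n = 5). The fall was 4.75-fold against blood (log2 difference -2.25, standard error 0.17, 95% interval -2.60 to -1.90, adjusted p = 5.16e-09, edgeR). It was 4.61-fold against liver CD8α high cells (log2 difference -2.21, standard error 0.17, adjusted p = 7.37e-09, edgeR). Within pigs, the log2 ratio of lrNK to blood ran from -2.70 in pig 1 to -1.93 in pig 3 and was negative in 5 of 5.

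*SELPLG*, the gene of PSGL-1, showed the largest fall of the 6. Blood libraries held 359.9, 256, 279.8, 253 and 334 CPM and liver CD8α high libraries 249, 236, 233, 211 and 268 CPM in pigs 1 to 5. The lrNK libraries held 30.3, 44.2, 60.9, 11.2 and 26.6 CPM, from 40 to 125 counts each. No lrNK library came near the CD8α high populations, but among themselves the lrNK libraries were spread widely, with a coefficient of variation of 54.2% against 16.2% in blood. Means were 297 ± 48.0, 239 ± 20.9 and 34.6 ± 18.8 CPM (SD, n = 5). The lrNK cells were 8.56-fold below blood (log2 difference -3.12, standard error 0.29, 95% interval -3.72 to -2.52, adjusted p = 1.08e-07, edgeR) and 6.90-fold below liver CD8α high cells (log2 difference -2.81, standard error 0.29, adjusted p = 4.83e-07, edgeR). The ratio within pigs varied from -2.19 in pig 3 to -4.42 in pig 4 on the log2 scale. Liver CD8α high libraries were lower than blood in all 5 pigs, but this difference did not pass the test (log2 difference -0.31, 95% interval -0.85 to 0.23, adjusted p = 0.9996, edgeR).

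*CD44* fell least of the 4. Its level in pigs 1 to 5 was 480.5, 525, 459, 556 and 419 CPM in blood and 469, 545, 435, 481 and 479.8 CPM in liver CD8α high cells. In lrNK cells it was 257, 321, 323, 313 and 299 CPM. Every lrNK library lay below all libraries of the CD8α high populations, which overlapped with each other. With means of 488 ± 53.8, 482 ± 39.9 and 303 ± 27.2 CPM (SD, n = 5), the fall was 1.61-fold against blood (log2 difference -0.69, standard error 0.13, 95% interval -0.96 to -0.42, adjusted p = 0.000647, edgeR). Against liver CD8α high cells it was 1.59-fold (log2 difference -0.67, standard error 0.13, adjusted p = 0.000961, edgeR). *CD44* was the steadiest of the 6 genes in lrNK cells, with a coefficient of variation of 8.99%.

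Since the fall of *SPN* was larger than that of *CD44*, the balance of the pair within a library shifted, a quantity that library scaling does not touch. The log2 ratio of *SPN* to *CD44* counts was 1.56 ± 0.23 in blood, 1.53 ± 0.19 in liver CD8α high and -0.037 ± 0.27 in lrNK cells (SD, n = 5). The ratio of *CD44* to *SELPLG* counts moved the other way, from 0.73 ± 0.36 in blood and 1.01 ± 0.17 in liver CD8α high cells to 3.33 ± 0.91 in lrNK cells. Of the counts of the 3 glycoprotein genes, those of *CD44* therefore took a larger share in lrNK libraries, although *CD44* itself fell. These ratios repeat the differences already tested and carry no test of their own.

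Among the ERM genes only *MSN* passed the test. Moesin is the ERM protein that lymphocytes are best known for. In pigs 1 to 5 *MSN* read 553, 780.4, 751, 1054 and 758 CPM in blood and 725, 818, 762, 683 and 778 CPM in liver CD8α high cells. The lrNK libraries read 391, 294, 341, 332 and 357 CPM. They lay close together and below all others, while blood was the most variable population for this gene, with a coefficient of variation of 22.9%. Means were 779 ± 179, 753 ± 51.5 and 343 ± 35.5 CPM (SD, n = 5). The fall was 2.27-fold against blood (log2 difference -1.18, standard error 0.15, 95% interval -1.50 to -0.86, adjusted p = 9.00e-06, edgeR) and 2.20-fold against liver CD8α high cells (log2 difference -1.14, standard error 0.15, adjusted p = 1.96e-05, edgeR). Pig 1, with the lowest blood level and the highest lrNK level, had the smallest log2 ratio of lrNK to blood (-0.50), and pig 4, with the highest blood level, the largest (-1.67).

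*EZR*, the gene of ezrin, differed less between populations than between lrNK libraries. Blood held 416, 582, 571, 605 and 443 CPM and liver CD8α high cells 448, 537, 475, 565 and 547 CPM. In lrNK cells pigs 1 to 5 held 327, 463, 122, 540.3 and 399 CPM. The library of pig 3 was far below the other lrNK libraries. Those of pigs 1 and 5 also lay below every blood library, and those of pigs 2 and 4 lay within the blood range. Means were 523 ± 86.9, 514 ± 50.6 and 370.3 ± 159 CPM (SD, n = 5). The lrNK value was lower than the blood value in 5 of 5 pigs, by log2 ratios of -0.15 to -0.35 in pigs 1, 2, 4 and 5 and of -2.22 in pig 3. The log2 difference was -0.50 against blood (standard error 0.25, 95% interval -1.02 to 0.03, adjusted p = 0.195, edgeR) and -0.47 against liver CD8α high cells (95% interval -0.996 to 0.05, adjusted p = 0.253, edgeR). Without the lrNK library of pig 3 the same differences were -0.26 (adjusted p = 0.292) and -0.25 (adjusted p = 0.356, edgeR).

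*RDX*, the gene of radixin, was the ERM gene with the highest mean in all populations, and its level did not pass the test in any comparison. It read 879.6, 809.7, 931, 736 and 904 CPM in blood, 1014, 978, 866, 918 and 788 CPM in liver CD8α high and 1183, 603, 1289, 778 and 919.9 CPM in lrNK cells of pigs 1 to 5. The lrNK libraries of pigs 1 and 3 lay above all others and that of pig 2 below all others. With means of 852 ± 78.9, 913 ± 89.99 and 955 ± 283 CPM (SD, n = 5), the log2 difference was 0.16 against blood (standard error 0.17, 95% interval -0.20 to 0.52, adjusted p = 0.587, edgeR) and 0.065 against liver CD8α high cells (95% interval -0.29 to 0.42, adjusted p = 0.876, edgeR). These intervals exclude a fall of the size of that of *MSN*. Without the lrNK library of pig 3 the difference from blood was 0.05.

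The composition of the ERM transcripts thus differed between the populations. Of all *MSN*, *EZR* and *RDX* counts in a library, *MSN* took 35.8 ± 5.20% in blood, 34.6 ± 2.20% in liver CD8α high and 20.6 ± 0.873% in lrNK cells (SD, n = 5), and the 5 lrNK shares, 19.5 to 21.6%, lay under every other library. *RDX* took 40.0 ± 6.34%, 41.8 ± 3.24% and 56.4 ± 11.8%. The *EZR* share averaged 24.2 ± 2.34%, 23.6 ± 2.38% and 23.0 ± 11.3%. Behind the even mean of *EZR* in lrNK cells stood unlike pigs: 17.2, 34.0, 6.98, 32.7 and 23.8% in pigs 1 to 5, while *RDX* took 62.2, 44.4, 73.6, 47.2 and 54.9% in the same libraries. The library with the lowest *EZR* share had the highest *RDX* share, and pigs 2 and 4, highest in *EZR*, were lowest in *RDX*, whereas the *MSN* share hardly moved. Shares of a fixed total must trade against each other. In CPM, the lrNK libraries of pigs 1 and 3 were lowest in *EZR* and highest in *RDX*. The summed ERM level was 2155 ± 202 CPM in blood, 2180.3 ± 92.5 CPM in liver CD8α high and 1668 ± 198 CPM in lrNK cells. As 3′ tags are counted about once per transcript, shares between genes are read here as shares of tags and not of protein.

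**Figure D2:**
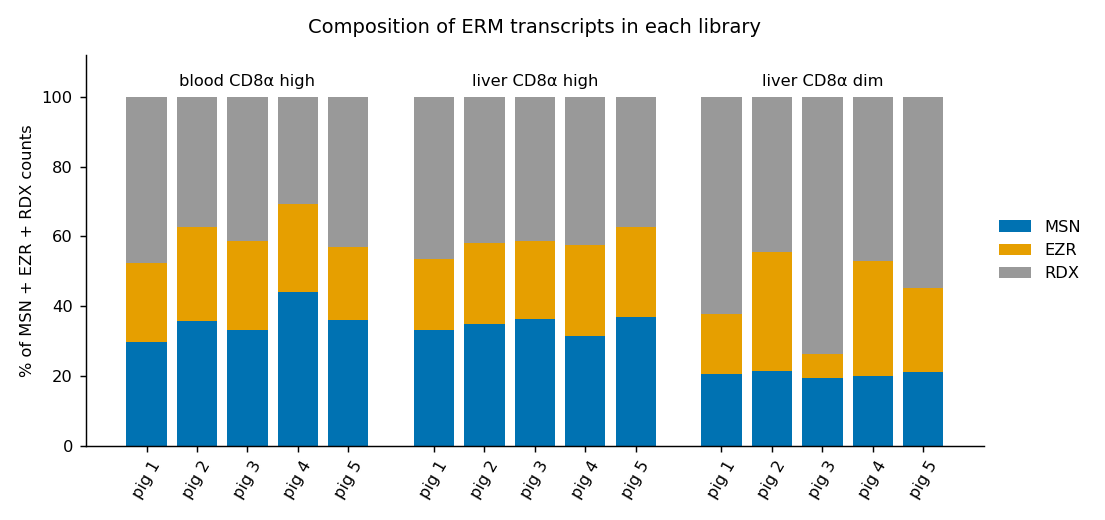
Share of *MSN*, *EZR* and *RDX* in their summed counts (vertical axis, percent) in each of the 15 libraries, grouped by population with pigs 1 to 5 in order. The *MSN* share is 19.5 to 21.6% in the lrNK libraries and 29.9 to 44.0% in the blood libraries, and in the lrNK libraries the *RDX* share runs from 44.4 to 73.6%.

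Liver CD8α high NK cells were also compared with blood NK cells. None of the 6 genes passed the test with edgeR or with DESeq2, and 0 of 6 had an unadjusted p under 0.05. Of all genes tested, edgeR called 0.064%, 0.0457% higher and 0.0183% lower in the liver, and 5.02% had an unadjusted p under 0.05. With DESeq2, 22 genes were called. The log2 differences were -0.042 for *SPN* (95% interval -0.37 to 0.29), -0.017 for *CD44* (-0.29 to 0.25), -0.049 for *MSN* (-0.36 to 0.27), -0.024 for *EZR* (-0.54 to 0.50) and 0.099 for *RDX* (-0.26 to 0.46), with *SELPLG* as given above. The ranges of the populations overlapped for all 6 genes, where 2.01% of all genes did not overlap. For *SPN*, *SELPLG*, *CD44* and *MSN* the lower end of the interval lay above the log2 difference of lrNK cells from blood.

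**Figure D3:**
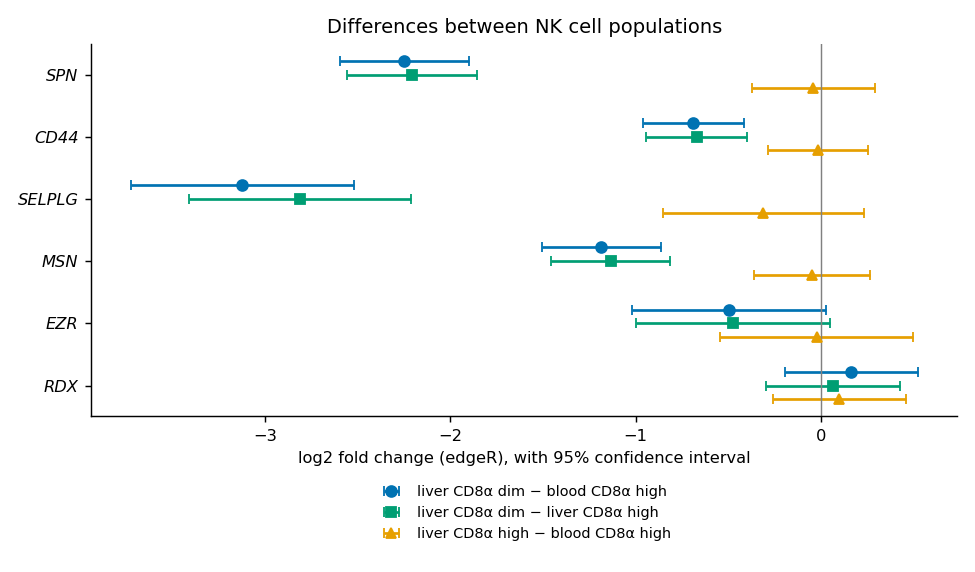
Log2 fold change of the 6 genes (horizontal axis) with 95% interval in the 3 comparisons between populations, n = 5 pigs each. In both comparisons of lrNK cells, *SPN*, *SELPLG*, *CD44* and *MSN* lie left of 0 with intervals that exclude it, and all 6 intervals of liver CD8α high against blood include 0.

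Across the 15 libraries, each of the 6 genes had others with a like pattern, among genes averaging at least 20 CPM. The Pearson r of log2 CPM is a description with no test, since the libraries share pigs and populations. For *SPN*, *SELPLG*, *CD44* and *MSN* it includes the split between lrNK cells and the rest, whereas *EZR* and *RDX* had no called difference between populations. Most like *SPN* was *S100A6* (r = 0.986), followed by *THRA* and *CDC42EP3*, the latter coding for an effector of the actin regulator CDC42. *SELPLG* went with *NOS2* (r = 0.983), *ARHGEF18* and *DENND3*. *CD44* went with *GNG2* (r = 0.976), *GNAI2* and *EMP3*, of which the first pair codes for G protein subunits. *MSN* went with *PTPN1* (r = 0.967), with *CD8A* itself (r = 0.961) and with *RAP1B*. *EZR* went with *TAF4* (r = 0.968), *CDC42* and *LY6E*. Of the 15 libraries the lrNK library of pig 3 was the lowest in *EZR* (122 CPM), and r without it was not computed. For *RDX* no gene came closer than *TCTE1* (r = 0.850), *IKZF3* and *GATC*.

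Of 11 listed genes for selectins and their other ligands 10 were in the table and 4 could be tested, and none passed in either comparison of lrNK cells with edgeR or with DESeq2, although 2 of 4 against blood and 1 of 4 against liver CD8α high cells had an unadjusted p under 0.05, as had 29.5% and 24.9% of all genes tested. The median log2 difference of the 4 was -0.69 from blood and -0.045 from liver CD8α high cells. Both *CD164*, the gene of another sialomucin, and *GLG1*, for an E-selectin ligand, were well counted in every library and are named after their values were seen. *CD164* averaged 244 ± 27.8 CPM in blood, 298 ± 20.96 CPM in liver CD8α high and 324 ± 80.6 CPM in lrNK cells (SD, n = 5; log2 difference of lrNK cells from blood 0.41, adjusted p = 0.0878, edgeR). *GLG1* averaged 135 ± 20.4, 124 ± 15.6 and 107 ± 25.4 CPM (log2 difference -0.34, adjusted p = 0.217, edgeR).

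Genes that build selectin-binding and other surface glycans changed in both directions. Of 25 listed genes 20 were tested, and against blood 6 of them were higher and 3 lower in lrNK cells (5 and 3 against liver CD8α high cells), with a median log2 difference of 0.34 from blood and 0.21 from liver CD8α high cells. Of all genes tested, 8.62% were higher and 9.6% lower than in blood, and 6.96% and 7.68% than in liver CD8α high cells, and these shares stand beside the counts of the lists that follow too. *GCNT1*, which codes for the enzyme that branches core 1 O-glycans into core 2, the scaffold of selectin ligands on PSGL-1 and CD43, rose from 3.90 ± 3.29 CPM in blood and 3.76 ± 1.28 CPM in liver CD8α high cells to 34.4 ± 19.0 CPM in lrNK cells (SD, n = 5), from 15 to 146 counts in a library. Its log2 difference was 3.14 from blood (standard error 0.65, adjusted p = 0.00149, edgeR) and 3.19 from liver CD8α high cells (adjusted p = 0.00140, edgeR), higher in 5 of 5 pigs. The lrNK cells with the lowest mean *SPN* and *SELPLG* levels thus had the highest *GCNT1* level.

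The sialyltransferase genes went apart. *ST3GAL6* fell from 58.9 ± 15.3 CPM in blood and 62.7 ± 38.8 CPM in liver CD8α high cells to 7.37 ± 3.97 CPM (log2 difference from blood -3.03, standard error 0.43, adjusted p = 2.34e-05, edgeR), and *ST3GAL4* rose from 70.9 ± 7.70 and 71.7 ± 11.8 CPM to 115 ± 26.1 CPM (log2 difference 0.69, standard error 0.18, adjusted p = 0.0106, edgeR). Both enzymes add sialic acid to galactose ends, as in sialyl Lewis x. The *ST3GAL4* call was lost without pig 5 (adjusted p = 0.0572). *CHST2*, a sulfotransferase gene, read 263, 108, 53.6, 293 and 221 CPM in the lrNK libraries of pigs 1 to 5, against 59.6 ± 24.1 CPM in blood and 82.2 ± 18.6 CPM in liver CD8α high cells. It was higher than blood in 4 of 5 pigs (log2 difference 1.66, standard error 0.35, adjusted p = 0.00181, edgeR), and its rise against liver CD8α high cells (log2 difference 1.20, adjusted p = 0.0224) was lost without pig 4 (adjusted p = 0.1505) or pig 5 (adjusted p = 0.0989, edgeR). *B3GNT3*, which extends core 1 O-glycans, fell from 14.1 ± 3.80 to 4.81 ± 2.57 CPM (log2 difference from blood -1.57, adjusted p = 0.0175, edgeR), a call lost without pig 1, 4 or 5 (adjusted p = 0.0680 to 0.103).

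The remaining calls on glycan genes against blood, named after their values were seen, were higher *B4GALT1*, *FUT4* and *FUT8* and lower *GALNT2*. *FUT7*, the fucosyltransferase gene of leukocyte sialyl Lewis x, had 0 counts in all blood libraries, 0 to 13 in liver CD8α high and 0 to 8 in lrNK libraries and was not tested. *TPST2*, for a tyrosine sulfotransferase of the kind that modifies PSGL-1, averaged 87.9 ± 26.6 CPM in blood, 94.4 ± 14.98 CPM in liver CD8α high and 69.5 ± 27.8 CPM in lrNK cells and did not pass the test (log2 difference from blood -0.33, adjusted p = 0.460, edgeR). Without the lrNK library of pig 3, which held 26.8 CPM against 56.9 to 94.4 CPM in the others, the difference was -0.11.

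**Figure D4:**
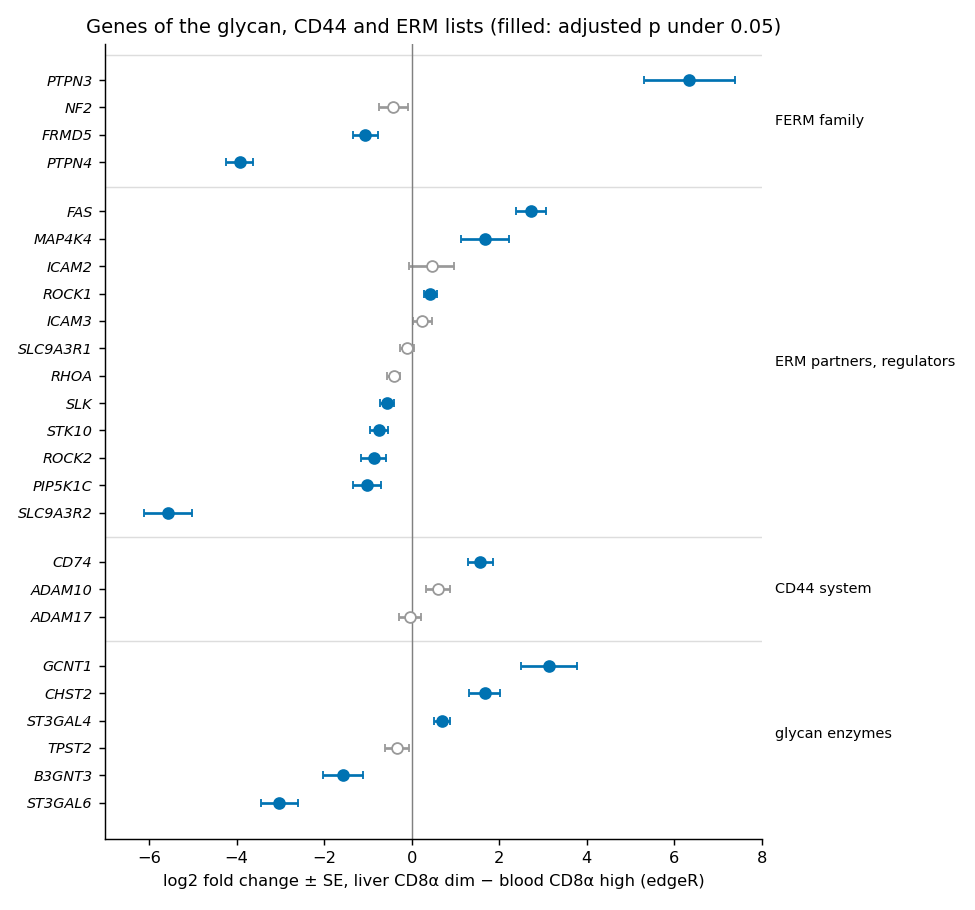
Log2 fold change of lrNK against blood NK cells (horizontal axis) for the genes named from the glycan, CD44, ERM partner and FERM lists, grouped by list, with bars of 1 standard error and n = 5 pigs in each population. Filled points passed an adjusted p of 0.05 (edgeR). *GCNT1* and *FAS* lie to the right of 0, *ST3GAL6* and *SLC9A3R2* to the left.

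Of 26 genes of the CD44 system (hyaluronan synthesis and breakdown, co-receptors and sheddases) 25 were in the table and 11 were tested, with a median log2 difference of lrNK cells of -0.042 from blood and 0.17 from liver CD8α high cells. Only *CD74*, the invariant chain that is also a CD44 partner in cytokine binding, passed with edgeR, and 2 of 11 passed with DESeq2. It rose from 25.2 ± 4.01 CPM in blood and 20.2 ± 9.20 CPM in liver CD8α high to 74.9 ± 19.5 CPM in lrNK cells (SD, n = 5; log2 difference from blood 1.57, standard error 0.29, adjusted p = 0.000442, edgeR; higher in 5 of 5 pigs). *CD74* is also highly expressed by B cells, whose summed markers were higher in the same libraries, and their part in this value was not tested. The sheddases that can cut CD44 from the surface did not pass: *ADAM10* averaged 23.0, 27.2 and 34.8 CPM in the 3 populations (log2 difference from blood 0.60, adjusted p = 0.149) and *ADAM17* 39.2, 32.3 and 38.2 CPM (-0.042, adjusted p = 0.942, edgeR).

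Of 29 symbols for ERM partners and regulators 24 were tested, of which, against blood, lrNK cells had 3 higher and 6 lower (2 and 5 against liver CD8α high cells), with a median log2 difference of -0.089 from blood and -0.012 from liver CD8α high cells. The scaffold gene *SLC9A3R2* (NHERF2), whose product links ERM proteins to membrane partners, was nearly lost. It averaged 37.2 ± 9.40 CPM in blood, 30.6 ± 9.22 CPM in liver CD8α high and 0.831 ± 1.18 CPM in lrNK cells (SD, n = 5), from 83 to 164, 79 to 249 and 0 to 7 counts. The log2 difference was -5.56 from blood (standard error 0.55, adjusted p = 2.27e-07, edgeR) and -5.28 from liver CD8α high cells (adjusted p = 6.38e-07, edgeR). Pig 1 held 7 of the 10 lrNK counts, and without pig 1 the differences were -6.86 and -6.68. Its paralogue *SLC9A3R1* (NHERF1, or EBP50) stayed at 371 ± 42.5 CPM in lrNK cells against 402.5 ± 69.3 CPM in blood and 379 ± 68.3 CPM in liver CD8α high cells, and its log2 difference of -0.12 from blood did not pass the test (adjusted p = 0.686, edgeR).

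Kinases of the ERM switch, a threonine near the end of each protein whose phosphorylation opens it, did not move one way. The lymphocyte ERM kinase gene *STK10* (LOK) averaged 134 ± 10.9 CPM in blood and 113 ± 12.7 CPM in liver CD8α high cells, and read 36.5 CPM in the lrNK library of pig 3 and 85.7 to 99.8 CPM in the other lrNK libraries. Its log2 difference from blood was -0.74 (adjusted p = 0.0143, edgeR), -0.54 without the lrNK library of pig 3 (adjusted p = 0.0111), and the call was lost without pig 4 (adjusted p = 0.0547). Its relative *SLK* fell from 305 ± 16.9 to 206 ± 54.3 CPM (-0.57, adjusted p = 0.0199, edgeR), a call lost without pig 1, 2 or 3 (adjusted p = 0.0611 to 0.0962). *ROCK2* read 70.6 ± 43.5 CPM in lrNK cells against 129 ± 15.3 CPM in blood (-0.87, adjusted p = 0.0416, edgeR), and *ROCK1* 831 ± 128 CPM against 620.0 ± 97.4 CPM (0.42, adjusted p = 0.0480, edgeR). Each of these calls was lost when any 1 of 4 pigs was left out (adjusted p = 0.0909 to 0.222 for *ROCK2* without pig 1, 3, 4 or 5 and 0.0727 to 0.219 for *ROCK1* without pig 1, 2, 3 or 4). *MAP4K4*, another ERM kinase gene, rose from 6.08 ± 3.15 to 19.6 ± 6.98 CPM (1.67, adjusted p = 0.0393, edgeR), and this was lost without pig 1, 2 or 4 (adjusted p = 0.109 to 0.134). Without the lrNK library of pig 3, *ROCK2* (-0.65, adjusted p = 0.0618) and *MAP4K4* (1.59, adjusted p = 0.0533, edgeR) did not pass. Against liver CD8α high cells *STK10* (-0.49, adjusted p = 0.133) and *ROCK1* (0.31, adjusted p = 0.196, edgeR) did not pass. There *SLK* (-0.62, adjusted p = 0.0132), *ROCK2* (-1.04, adjusted p = 0.0179) and *MAP4K4* (2.03, adjusted p = 0.0168, edgeR) passed. *SLK* was lost without pig 2, *ROCK2* without pig 4 or 5 and *MAP4K4* without pig 2 or 4.

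Other regulators and partners included *PIP5K1C*, for an enzyme that makes the membrane lipid which recruits ERM proteins. It was at 21.6 ± 12.2 CPM in lrNK cells against 43.4 ± 12.8 CPM in blood (log2 difference -1.02, adjusted p = 0.0268, edgeR), a call lost without pig 2, 4 or 5 (adjusted p = 0.0596 to 0.162), and the difference was -1.38 without the lrNK library of pig 3. *RHOA*, for the GTPase upstream of the ROCK kinases, averaged 592 ± 82.2 CPM in blood, 559 ± 46.4 CPM in liver CD8α high and 444 ± 84.8 CPM in lrNK cells and did not pass the test (-0.42, adjusted p = 0.0613, edgeR). The death receptor gene *FAS*, whose product binds ezrin, rose from 10.3 ± 6.17 CPM in blood and 17.7 ± 5.91 CPM in liver CD8α high to 68.6 ± 16.8 CPM in lrNK cells (2.72, standard error 0.35, adjusted p = 6.91e-06, edgeR). The ERM-bound adhesion genes *ICAM3* (144 ± 41.8 CPM in blood, 171 ± 38.1 CPM in lrNK, log2 difference 0.24, adjusted p = 0.506) and *ICAM2* (7.49 and 10.3 CPM, log2 difference 0.46, adjusted p = 0.614, edgeR) did not pass, and the *ICAM2* difference was 0.15 without the lrNK library of pig 3. *SDC2*, named after its values were seen, was also lower.

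Of 28 other genes with a FERM domain 17 were tested, of which 1 was higher and 4 were lower than in blood (1 and 3 against liver CD8α high cells), with a median log2 difference of -0.42 from blood and -0.013 from liver CD8α high cells. The phosphatase genes *PTPN4* and *PTPN3*, whose products share this domain, changed in opposite directions. *PTPN4* fell from 584 ± 134 CPM in blood and 665 ± 129.6 CPM in liver CD8α high to 37.9 ± 24.3 CPM in lrNK cells (log2 difference from blood -3.92, standard error 0.31, adjusted p = 1.24e-08, edgeR). *PTPN3* had 0 to 7 counts in blood libraries, 0 to 16 in liver CD8α high and 36 to 324 in lrNK libraries, where it averaged 35.8 ± 29.2 CPM (log2 difference from blood 6.34, standard error 1.04, adjusted p = 0.000143, edgeR). All 7 blood counts came from pig 1, so the size of this difference rests on that library. It was 9.96 without pig 1 (adjusted p = 6.97e-05, edgeR), a value that sets lrNK cells against blood libraries all at 0 and therefore depends on the fit's prior count and is no bound, and 5.49 without pig 5 (adjusted p = 0.00305, edgeR). *FRMD5* averaged 51.3 ± 22.0 CPM in blood, 28.8 ± 3.13 CPM in liver CD8α high and 24.6 ± 7.10 CPM in lrNK cells. Its difference between lrNK cells and blood (adjusted p = 0.0113, edgeR) was lost without pig 4 (adjusted p = 0.129) or pig 5 (adjusted p = 0.0810). Against liver CD8α high cells *FRMD5* did not pass the test (log2 difference -0.24, adjusted p = 0.682, edgeR). *TLN2* and *FRMD6*, named after their values were seen, were also lower. *NF2*, for merlin, the closest relative of the ERM proteins, averaged 16.8 ± 3.06 CPM in lrNK cells against 22.5 ± 9.07 CPM in blood and did not pass the test (-0.42, adjusted p = 0.430, edgeR).

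Between liver CD8α high and blood NK cells none of the 76 tested genes of these 5 lists passed the test with edgeR or with DESeq2, and 5 had an unadjusted p under 0.05, where 0.064% of all genes passed and 5.02% had such a p. In the other comparisons, 24 of the 76 passed between lrNK and blood cells and 20 of 76 between lrNK and liver CD8α high cells. The backgrounds of the latter were 18.2% and 14.6% of all genes, and no list was tested against the other genes.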

How the data were processed

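RNA of 3 sorted NK cell populations from each of 5 pigs was made into 15 libraries with the QuantSeq 3′ FWD kit. The authors deposited raw counts per gene, and HISAT2 is named in the submitters' processing notes, with no version, while the counting program and its handling of strand and of multiply mapped reads are not given in the sources used here. Counts of 3′ tags do not scale with transcript length. Of 29886 genes, 11717 were at 0 in all libraries. Library totals were 2874092 to 3823973 in blood, 2886686 to 5680221 in liver CD8α high and 2003499 to 3776823 in lrNK cells.

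edgeR 4.0.16 in R 4.3.3 was used for the filter on low counts by population, TMM scaling and quasi-likelihood tests on all 15 libraries without a block. Benjamini-Hochberg adjustment ran over 10939 genes with a threshold of 0.05, and standard errors were taken as the fold change over the root of its F. Alternatives were DESeq2 1.42.0, its size factors, other filters, a robust fit, fits of only 2 populations, a pig block, leaving out each pig and, chosen after seeing the data, leaving out the lrNK library of pig 3. Scripts were tested on simulated data.

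The 6 genes and the lists of related and marker genes were chosen with earlier results of these data known. Beside the 6 genes, the text names from each of 5 lists up to 4 called genes with the largest change against blood at a mean of at least 10 CPM, a fixed set of glycan, sheddase and ERM regulator genes, and the 3 genes of at least 20 CPM most like each of the 6. 1 listed gene is not reported here by name. Positions come from a RefSeq gene table of Sscrofa11.1. The pairing comes from the donor numbers of the labels, which mark the same animals. Libraries of the same pig deviated together only weakly, with a mean r of 0.107 over 15 pairs against -0.0265 over 60 pairs of different pigs. No pair of replicates was identical within sampling noise.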

Additional observations from a re-analysis of the deposited data

Results flagged for a closer look

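Within populations of 5 libraries, 95 groups over 32 genes were examined for 1 library far from the other 4 by Dixon's gap ratio at its 95% critical value, which chance exceeds in about 1 of 20 groups. None of the 6 genes of the report had such a library, and 8 groups of the related genes did. In liver CD8α high cells, pig 1 was the highest for *CHST2* (114 CPM, the others 67.8 to 79.8 CPM), for *FUT7* (4.49 CPM, the others 0) and for *PTPN3* (5.53 CPM, the others 0 to 0.862 CPM). In blood, pig 1 was the highest for *PTPN3* (1.90 CPM, the others 0) and *SLK* (334 CPM, the others 295 to 305 CPM), and pig 5 for *ROCK2* (156 CPM, the others 116 to 126 CPM). In lrNK cells, pig 1 was the highest for *SLC9A3R2* (2.91 CPM, the others 0 to 0.487 CPM) and pig 3 the lowest for *STK10* (36.5 CPM, the others 85.7 to 99.8 CPM).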

How the results depend on the processing

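The calls on *SPN*, *SELPLG*, *CD44* and *MSN* in both comparisons of lrNK cells held under all alternatives run, and *EZR*, *RDX* and the comparison of liver CD8α high with blood stayed without a call. Leaving out each pig gave log2 differences from blood of -2.35 to -2.16 for *SPN*, -3.45 to -2.94 for *SELPLG*, -0.73 to -0.63 for *CD44*, -1.33 to -1.04 for *MSN*, -0.62 to -0.24 for *EZR* and 0.065 to 0.27 for *RDX*. With the pig as a replicate block the differences from blood were -2.28 for *SPN*, -3.21 for *SELPLG*, -0.69 for *CD44*, -1.17 for *MSN*, -0.58 for *EZR* (adjusted p = 0.0950) and 0.13 for *RDX*. The block changed no call on these genes or on the related genes that were compared between fits. Markers and genes named after their values were seen were not compared. Signs turned only among uncalled values. On leaving out each pig, liver CD8α high against blood ran from -0.052 to 0.035 for *CD44*, -0.13 to 0.12 for *MSN* and -0.089 to 0.038 for *EZR*, *RDX* against liver CD8α high from -0.087 to 0.22, and *ADAM17* against blood from -0.12 to 0.066. *RDX* was at -0.065 against liver CD8α high without the lrNK library of pig 3. The causes were not tested.

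The 7 genes called between liver CD8α high and blood became 22 with DESeq2, 18 without a filter, 4 with a robust fit, 16 with 2 populations in the fit, 12 without the lrNK library of pig 3 and 0 to 8 without 1 pig. The 1601 genes between lrNK and liver CD8α high cells became 1051 to 1453 without 1 pig, the lowest without pig 5, and 1764 without the lrNK library of pig 3. The 1993 genes between lrNK and blood became 1472 to 1951 without 1 pig and 1551 to 2376 under the others. Of the list genes, 24 against blood became 16 to 22 without 1 pig. With only the 2 populations compared in the fit, *B3GNT3* (0.0533), *PIP5K1C* (0.0724), *ROCK1* (0.108), *ROCK2* (0.0867) and *SLK* (0.0528) missed the adjusted p threshold against blood, as did *ROCK1* without a filter (0.112, edgeR). *RHOA* was called by DESeq2 (-0.40, adjusted p = 0.0353). Low counts limit *FUT7* and *PTPN3*.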
